A study of Mus musculus with 14 samples.

Results

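The genes described here encode the chains of collagens, laminins and integrins together with the nidogens and fibronectin. They were chosen by symbol, as every protein-coding gene of the count table named Col, Lam, Itga or Itgb with its chain number, plus Nid1, Nid2 and Fn1. That gave 76 genes of 55487 in the table, and 1 further gene that matches the pattern is not analysed here. By role, 21 are basement membrane genes, 2 are epithelial anchoring collagens, 11 are fibrillar collagens, 21 are other interstitial matrix genes, 3 are transmembrane collagens, 10 are integrin alpha chains and 8 are integrin beta chains. Of the 76, 54 had enough reads to be tested and 22 did not. Of the 54, 43 also had enough reads within the 6 control libraries alone.

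The libraries are bulk RNA-seq of mouse kidney epithelium at stage E13.5, made from cells sorted for GFP, which the Hoxb7-Cre transgene makes in the ureteric bud lineage together with the Cre recombinase. There were 5 libraries labelled Cep120 KO, 3 controls of that line, 3 Pkd1 KO libraries and, with 3 of its own controls, 14 libraries in all. Cep120 is a centriole protein, and the study's title and design text ask what its loss does to kidney progenitors. Every library, controls included, comes from GFP-sorted cells of this transgenic lineage, so the deletions concern the ureteric bud and its descendants and not the other kidney cells. Control titles read het, but their genotype field reads WT, and the sources used here do not settle which alleles they carry. Nor do they say whether replicates were separate embryos, litters or pools, so every p-value rests on how far these libraries differ among themselves, which may be technical variation. Libraries are named by the number in their label (KO 2, KO 4, KO 5, KO 6 and KO 7), and KO stands for the label.

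The basement membrane is a thin sheet under every epithelium. Laminins, each built of an alpha, a beta and a gamma chain, form one of its networks, collagen IV forms the other, and nidogens and perlecan link them. Fibrillar collagens, fibronectin and the collagens that decorate fibrils make up the interstitial matrix, which stromal cells mostly secrete. Integrins are pairs of an alpha and a beta chain that hold cells to laminin, collagen or fibronectin, and branching of the ureteric bud depends on them.

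Libraries held between 11347628 and 27967540 counts. The summed level of 16 ureteric epithelium markers was 3418 to 3973 CPM (counts scaled to library size) in the libraries other than KO 6 and KO 7, which had 1432 and 2032. In those libraries 9 nephron progenitor markers summed to 825 and 628 CPM, against 31.5 to 69.7 elsewhere, and 12 stromal markers to 132 and 99.3 CPM, against 2.35 to 55.8. KO 4 and KO 5 were the most alike pair of one group: a chi-square per gene between them was 4.55, where 1 is sampling noise, against 12.6 to 295 for the other pairs. Cep120 itself stood at 7.87, 19.5, 21.2, 13.1 and 16.5 CPM in KO 2, 4, 5, 6 and 7 and at 10.6, 6.41 and 9.45 CPM in their controls (log2 fold change 0.83, SE 0.31, edgeR adjusted p = 0.0832). The count over the whole gene therefore did not check that label. Pkd1 stood at 2.68, 2.39 and 2.42 CPM in Pkd1 KO and 4.60, 3.34 and 3.84 CPM in its controls, below every control but not past the test (log2 fold change -0.65, SE 0.43, edgeR adjusted p = 1).

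In the 6 control libraries the set was led by laminin chains and their receptors. Levels between genes are given as deposited TPM, which scale counts by transcript length and library size. Itgb1, the beta chain shared by most integrins, had the highest mean at 24.0 TPM (range 20.1 to 27.7). Lamb1 followed at 21.5 TPM (17.4 to 28.2) and Lamc1 at 16.9 TPM (11.9 to 21.8), so the ranges of these leading chains overlapped. Itga6, a laminin receptor chain, averaged 13.6 TPM, but only 30.3 to 50.3% of its reads lay in protein-coding transcripts over the 14 libraries, so its gene TPM includes short noncoding ones. Lama5 averaged 10.7 TPM, Fn1 9.62, Col18a1 9.20, Itgb5 5.72, Lama1 5.57, Itga3 4.85 and Col4a1 3.49 TPM. Of these, Lama1, Lama5, Lamb1 and Lamc1 are chains of the laminins built on alpha 1 or alpha 5, and Itga3, Itga6 and Itgb1 are chains of epithelial laminin receptors. The order of Lama5 over Lama1 holds for TPM only, as their ratio in CPM was 0.560 to 1.01 in the 6 controls. In those controls 84.1 to 87.2% of Lama5 reads lay in protein-coding transcripts. Itgb6, a chain of epithelial cells, averaged 1.97 TPM (1.12 to 3.31). The fibrillar collagens were far lower, with Col27a1 at 1.61 TPM, Col1a1 at 1.24 TPM (0.182 to 3.28) and Col1a2 at 1.18 TPM (0.394 to 2.52). Among the other interstitial genes Col9a3 and Col14a1 followed Fn1 at 0.809 and 0.607 TPM. The anchoring collagens Col7a1 and Col17a1 averaged 0.0485 and 0 TPM, and the transmembrane collagens Col25a1, Col13a1 and Col23a1 averaged 0.0577, 0.0547 and 0.0187 TPM.

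Promoter windows of the members were searched for short sequence elements. RefSeq (build GRCm38.p6) gave 60 windows of 250 bases upstream of a start site for 54 of the 76 genes. A GC box (GGGCGG on either strand) lay in 31 of the 60, or 51.7%, and in 32.7% of the 32851 windows of all genes. A CCAAT box (CCAAT) lay in 28.3% of member windows and 33.8% of all, and an AP-1 site (TGANTCA) in 1.67% and 6.75%. Neither motif overlaps the GC box in its letters. These shares carry no test, and the windows were not matched for GC content. The windows of Lama5, the laminin alpha chain with the highest mean control TPM, and of Itga5 and Col5a1, which are among the called genes described next, are shown because they hold GC boxes and no annotated exon. They lie at chr2:180225860-180226109 on the minus strand, chr15:103366792-103367041 on the minus strand and chr2:27886175-27886424 on the plus strand, and capitals mark the 4, 2 and 2 GC boxes.
Lama5: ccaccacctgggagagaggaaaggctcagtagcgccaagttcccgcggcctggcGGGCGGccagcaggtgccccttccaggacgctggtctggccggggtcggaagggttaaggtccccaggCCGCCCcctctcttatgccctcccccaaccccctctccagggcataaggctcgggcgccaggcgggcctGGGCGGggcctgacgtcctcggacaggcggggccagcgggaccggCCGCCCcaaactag
Itga5: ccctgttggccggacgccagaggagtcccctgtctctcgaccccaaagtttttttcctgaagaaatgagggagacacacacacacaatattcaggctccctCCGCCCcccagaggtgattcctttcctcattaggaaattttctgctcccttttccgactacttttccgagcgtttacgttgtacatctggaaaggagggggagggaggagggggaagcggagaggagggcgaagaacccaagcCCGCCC
Col5a1: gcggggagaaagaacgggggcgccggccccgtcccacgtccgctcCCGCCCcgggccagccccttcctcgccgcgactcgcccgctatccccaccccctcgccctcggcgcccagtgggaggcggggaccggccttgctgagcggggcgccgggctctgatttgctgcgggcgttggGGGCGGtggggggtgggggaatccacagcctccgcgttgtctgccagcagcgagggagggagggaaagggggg

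In Cep120 KO, as labelled, some genes of the basement membrane, interstitial and integrin classes were called higher than in the controls of that line. Of the 54 tested members 13 rose past the test, or 24.1%, against a background of 8.4% of all 16876 genes tested, and 0 fell, against 6.26%. Beside the 0, 19 of the 54 members (35.2%) had an unadjusted p under 0.05 in either direction, about the share of all genes (33.7%). The Wald test of DESeq2 called 16 higher (14.8% of all genes) and 1 lower (10.1%). The called genes were Col18a1, Col4a5, Lamb2, Col4a2, Col4a1 and Lama4 (6 of 19 tested basement membrane genes), Col2a1 and Col5a1 (2 of 9 fibrillar collagens), Col26a1 and Fn1 (2 of 10 other interstitial genes), Itga9 and Itga5 (2 of 7 alpha chains) and Itgb4 (1 of 7 beta chains). The median log2 fold change was 0.94 over the 54 members and 0.12 over all genes, and 48 of the 54 were above 0. Among the 43 members that also passed the filter in the controls alone, 12 were called higher (27.9%, against 8.97% of all such genes) with a median of 0.88, against 0.06. These counts describe the set, whose members share libraries. By class the median was 1.49 for basement membrane genes, 0.75 for fibrillar collagens, 1.00 for other interstitial genes, 0.72 for alpha chains and 0.31 for beta chains.

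The count moved with single libraries, as did that over all genes. Without control 1, control 2 or control 3 of the Cep120 line, no member was called, and adjusted p for the 13 ran from 0.0926 to 0.162 (edgeR), while 0.00558, 0.0169 and 0.00559% of all genes were called higher. Without KO 6 only Col18a1 was called (1.18% of all genes), and without KO 7 no member was (0.0303%). Without KO 4 or without KO 5 there were 7 (5.99 and 5.11% of all genes). Without KO 2 there were 19 higher (19.2%) and 1 lower, Itgb3 (14.8%). With RLE size factors 11 were called (7.86% of all genes), with limma-voom 25 (21.4%) and with no filter 14 (4.48%). A fit of the 8 Cep120-line libraries alone called none of the 13 (edgeR adjusted p 0.133 to 0.155) and 0.0% of all genes. In 4 of the 54 members, or 7.41%, every KO library lay above every Cep120-line control, against 6.41% of all genes. In 0 every KO library lay below, against 8.75%. The 4 were Col4a5, Lamc3, Col2a1 and Itgb4.

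**Figure D1:**
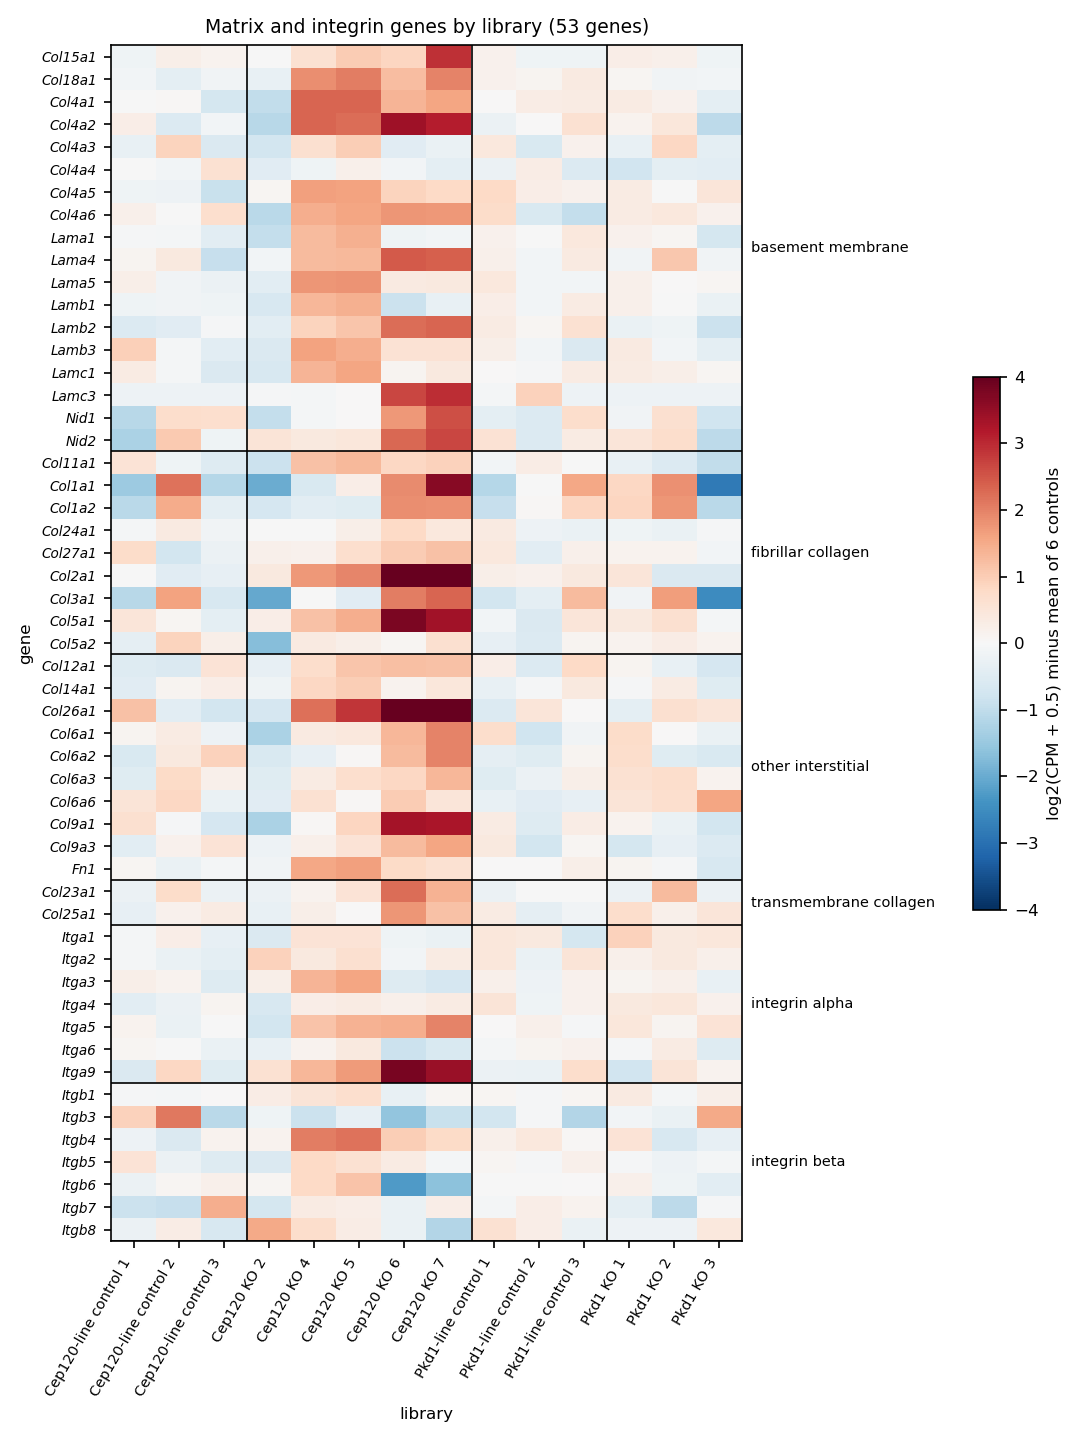
Level of 53 of the 54 tested genes (rows, grouped by role) in the 14 libraries (columns), as log2(CPM + 0.5) minus the mean of the 6 controls. Values beyond 4 are drawn as 4, which concerns Col2a1 and Col26a1 in Cep120 KO 6 and 7. Lama1, Lama5, Lamb1 and Lamc1 are deepest in KO 4 and 5, and Lama4, Lamb2, Lamc3, Col2a1, Col26a1, Col9a1 and Itga9 in KO 6 and 7.

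The libraries did not rise alike. Taking each tested member's highest library over all 14, 3 members peaked in KO 4, 16 in KO 5, 12 in KO 6, 14 in KO 7 and 2 in KO 2. The matching shares are 5.56, 29.6, 22.2, 25.9 and 3.7% of the members, against 6.47, 8.39, 19.5, 13.6 and 8.22% of all tested genes. The median basement membrane gene stood 1.45, 1.47, 1.32 and 1.47 above the mean of the Cep120-line controls on the log2 scale in KO 4, 5, 6 and 7, and -0.54 in KO 2. For fibrillar collagens the same medians were 0.11, 0.39, 1.87 and 1.81, with -0.66 in KO 2. By these medians basement membrane genes were high in 4 of the 5 libraries, and fibrillar collagens mainly in KO 6 and KO 7.

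Col4a1 and Col4a2 encode the chains of the collagen IV found in nearly every basement membrane. They are divergent neighbours at chr8:11198423-11312826 (minus strand) and chr8:11312805-11449287 (plus strand) in GRCm38, overlap over 22 bases, and were counted without strand. Col4a1 stood at 8.79, 91.7, 92.1, 46.5 and 53.7 CPM in KO 2, 4, 5, 6 and 7 and at 17.7, 18.4 and 10.7 CPM in the controls. Only KO 2 overlapped the controls, lying under all of them, and the log2 fold change was 1.91 (SE 0.54, edgeR adjusted p = 0.036). Col4a2 stood at 2.36, 30.6, 28.8, 64.4 and 54.6 CPM against 6.99, 3.78 and 5.22 CPM, again with KO 2 lowest of all (2.77, SE 0.75, edgeR adjusted p = 0.0327). Col4a1 was highest in KO 4 and KO 5, and Col4a2 in KO 6 and KO 7. Per length, Col4a1 over Col4a2 was 1.46 and 1.41 in KO 6 and KO 7 and 2.56 to 6.15 in the other 12 libraries (ratios of TPM, with no test).

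The chains of the other collagen IV networks were scarcer. Col4a5, at chrX:141475385-141689234, stood at 4.72, 14.7, 14.5, 8.67 and 8.02 CPM in KO 2, 4, 5, 6 and 7 and at 3.88, 3.82 and 2.15 CPM in the controls. All 5 KO libraries were above these Cep120-line controls (1.62, SE 0.39, edgeR adjusted p = 0.0299). KO 2 was under every Pkd1-line control, which stood at 8.03, 5.45 and 5.10 CPM. Its neighbour Col4a6 stood at 0, 2.40, 2.63, 3.12 and 3.02 CPM against 0.705, 0.534 and 1.17 CPM, and was not called (1.49, SE 1.02, edgeR adjusted p = 0.324). Col4a3 and Col4a4, whose chains join Col4a5's in the mature glomerular basement membrane, reached at most 1.15 and 0.798 CPM in any library, and neither was called.

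Laminin chains split by library. Lama5, the main alpha chain of maturing tubule basement membranes, stood at 17.6, 81.2, 83.1, 30.4 and 31.2 CPM in KO 2, 4, 5, 6 and 7 and at 27.96, 21.2 and 20.01 CPM in the controls (1.08, SE 0.43, edgeR adjusted p = 0.0967). KO 4 and KO 5 were far above the controls, KO 6 and KO 7 just above them and KO 2 below. Lama1, an early epithelial alpha chain, stood at 14.6, 70.2, 78.3, 25.7 and 26.4 CPM against 27.7, 27.1 and 21.1 CPM (0.77, SE 0.46, edgeR adjusted p = 0.254). Lamb1, the common beta chain, stood at 79.5, 313, 335, 68.2 and 101 CPM against 111, 112 and 109 CPM (0.70, SE 0.47, edgeR adjusted p = 0.312). Only KO 4 and KO 5 exceeded the highest control for Lama1 and Lamb1. Lamc1, the common gamma chain, stood at 30.2, 123, 141, 50.9 and 62.5 CPM against 59.3, 44.96 and 31.9 CPM (0.85, SE 0.40, edgeR adjusted p = 0.158), with KO 7 just over the highest control. Without KO 4 and KO 5 the fold changes of Lama1 and Lamb1 turned to -0.18 and -0.42.

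The called laminin chains were those highest in KO 6 and KO 7. Lamb2, the beta chain that replaces Lamb1 in mature basement membranes such as the glomerular one, stood at 2.75, 7.52, 8.91, 19.8 and 21.4 CPM in KO 2, 4, 5, 6 and 7 and at 2.47, 2.63 and 3.68 CPM in the controls (2.05, SE 0.54, edgeR adjusted p = 0.0322). KO 2 lay among the controls and the other 4 above them. Lama4, an alpha chain of vessel and mesenchymal laminins, stood at 1.77, 5.44, 5.58, 12.97 and 12.4 CPM against 2.17, 2.71 and 0.798 CPM (2.003, SE 0.63, edgeR adjusted p = 0.0469), with the same overlap of KO 2. Per length, Lamb1 over Lamb2 was 1.89 and 3.20 in KO 6 and KO 7 and 15.4 to 48.4 elsewhere. Lamc3 had 0 reads in the 3 controls and 1, 1, 2, 90 and 126 reads in KO 2, 4, 5, 6 and 7, at least 35.9-fold higher over the group when the controls are set to a floor of 3 reads (edgeR adjusted p = 0.077). In the Pkd1-line controls 1, 2 and 3 it had 1, 13 and 0 reads, so control 2 of that line had more than KO 2, 4 or 5. Lamc3 shares 6.3% of its exon bases with an antisense gene. Nidogens followed the same libraries: Nid2, which links laminin to collagen IV, stood at 16.4 and 21.6 CPM in KO 6 and KO 7, at 4.05 to 4.39 CPM in the other KO libraries and at 0.940, 6.69 and 2.58 CPM in the controls (1.57, SE 0.75, edgeR adjusted p = 0.159).

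Col18a1, the most abundant collagen of the controls, encodes a basement membrane proteoglycan whose end fragment is endostatin. It lies at chr10:77052178-77166548 and stood at 36.9, 164, 187, 108 and 180 CPM in KO 2, 4, 5, 6 and 7 against 41.7, 34.3 and 41.4 CPM. The lowest of KO 4, 5, 6 and 7 was well above the highest control, and KO 2 was among the controls (1.79, SE 0.39, edgeR adjusted p = 0.029). Col18a1 was also called without KO 6 and KO 7 (1.73) and without KO 4 and KO 5 (1.47). Its relative Col15a1 reached 3.82 CPM in KO 7 and at most 0.657 CPM elsewhere, and was not called (edgeR adjusted p = 0.104). Of 10 endothelial markers 7 were also highest of the 14 libraries in KO 7, among them Pecam1 at 11.05 CPM (at most 3.29 elsewhere) and Kdr at 7.48 CPM (at most 1.60). All 10 summed to 98.5 CPM in KO 7, 22.2 CPM in KO 6 and 41.9 to 90.9 CPM in the other 12. Their part in the Col15a1 value was not tested.

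**Figure D2:**
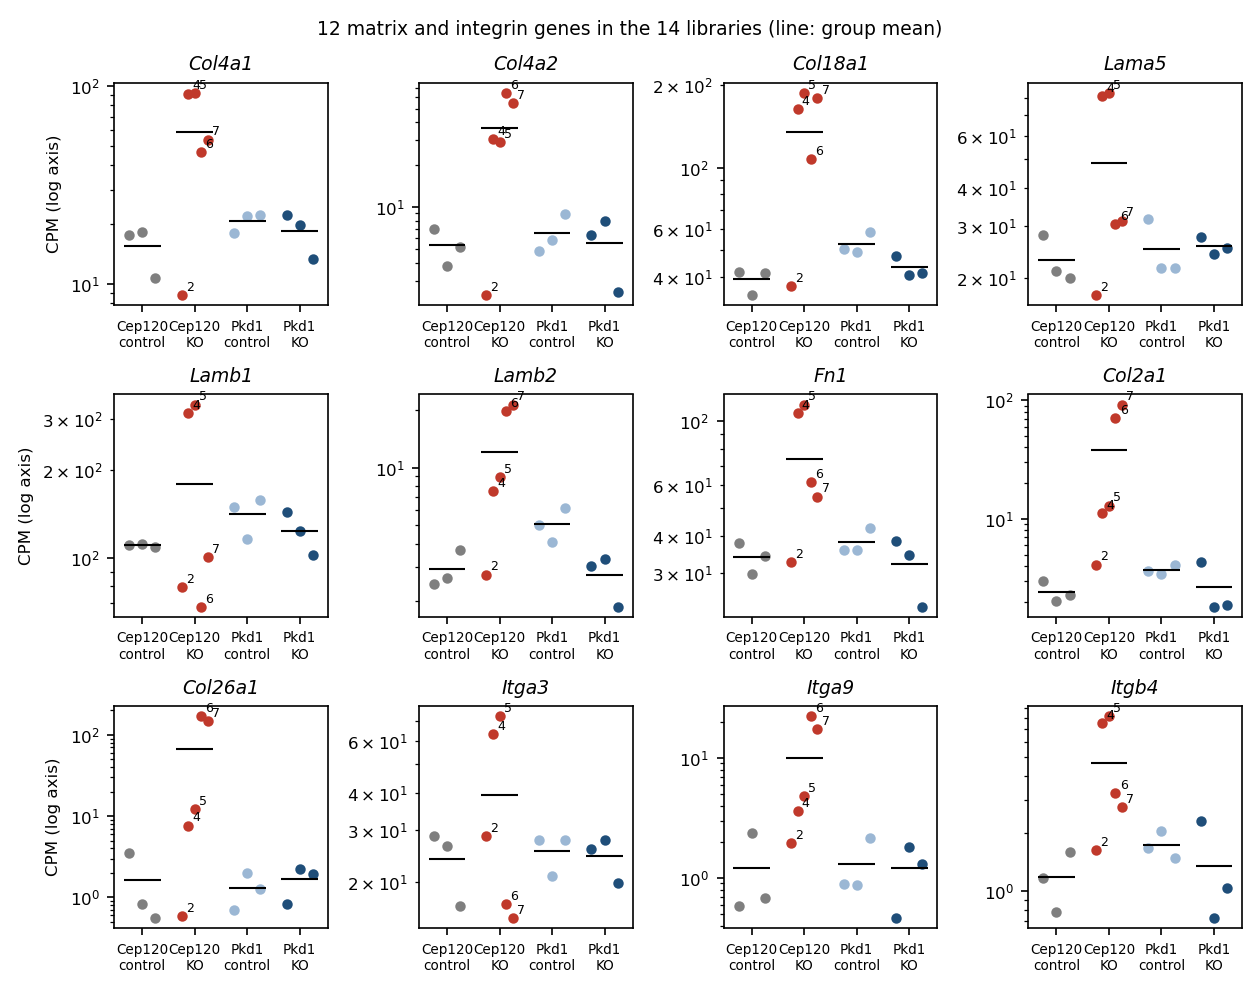
CPM (log axis) of 12 genes in the 14 libraries, 1 point per library by group, with a line at the group mean and numbers for the Cep120 KO libraries. KO 4 and 5 are the high points for Col4a1, Lama5, Lamb1, Fn1, Itga3 and Itgb4, and KO 6 and 7 for Col4a2, Lamb2, Col2a1, Col26a1 and Itga9; KO 2 lies near or under the controls in each panel.

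Among the fibrillar collagens the called genes were not the type I and III chains of stroma. Col2a1, best known as the cartilage collagen, stood at 4.13, 11.1, 12.97, 71.1 and 91.8 CPM in KO 2, 4, 5, 6 and 7 and at 2.996, 2.05 and 2.27 CPM in the controls. All 5 were above the controls, with KO 6 and KO 7 highest (3.97, SE 0.91, edgeR adjusted p = 0.029). Without KO 6 and KO 7 it was still called at 1.95. Col5a1, which nucleates collagen I fibrils, stood at 0.393, 1.17, 1.52, 9.49 and 7.04 CPM against 0.529, 0.287 and 0.0614 CPM (3.72, SE 1.18, edgeR adjusted p = 0.0493); only 1 of the 6 controls reached 10 reads. Col11a1, the partner of Col2a1 in cartilage fibrils, stood at 2.10, 9.97, 11.1, 7.77 and 8.41 CPM against 6.34, 3.70 and 2.76 CPM, and was not called (0.88, SE 0.45, edgeR adjusted p = 0.181).

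Col1a1, a main chain of type I collagen, was spread widely within every group. It stood at 0.656, 2.51, 4.97, 16.5 and 56.8 CPM in KO 2, 4, 5, 6 and 7, at 1.17, 20.1 and 1.60 CPM in the Cep120-line controls, at 1.60, 4.03 and 12.8 CPM in the Pkd1-line controls and at 7.59, 15.6 and 0.138 CPM in Pkd1 KO. Those groups overlapped (1.09, SE 1.36, edgeR adjusted p = 0.61 in the Cep120 line). The 12 stromal markers summed to 55.8 CPM in Cep120-line control 2, 26.3 CPM in Pkd1-line control 3, 45.9 CPM in Pkd1 KO 2 and 2.35 CPM in Pkd1 KO 3, the libraries with the high and low Col1a1 of their groups. In Cep120 KO the order was different, since KO 6 had the higher stromal sum (132 CPM, against 99.3 CPM in KO 7) and the lower Col1a1. Col1a2, its partner chain, reached 13.47, 8.66 and 16.6 CPM in the first 3 of these libraries and 1.87 CPM in Pkd1 KO 3. In sorted bulk cells more cells of a type and more RNA per cell cannot be told apart.

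Other interstitial genes were led by Fn1 and Col26a1. Fn1, fibronectin, the ligand of integrins that assemble early matrix, stood at 32.6, 106, 114, 61.5 and 54.8 CPM in KO 2, 4, 5, 6 and 7 and at 37.9, 29.6 and 34.2 CPM in the controls. KO 2 lay among the controls and the other 4 above them (1.12, SE 0.34, edgeR adjusted p = 0.0438). Col26a1, a short collagen with an EMI domain at chr5:136741759-136883209, stood at 0.590, 7.62, 12.3, 170 and 148 CPM against 3.47, 0.821 and 0.552 CPM (5.40, SE 1.49, edgeR adjusted p = 0.0338). It was the largest fold among the called members, and it rested on KO 6 and KO 7, without which it was 2.10 and not called (edgeR adjusted p = 0.138). Col9a1, a collagen carried on collagen II fibrils, had 19.5 and 18.7 CPM in KO 6 and KO 7, 0.328 to 3.04 CPM in the other KO libraries and 2.58, 1.40 and 0.737 CPM in the controls (2.46, SE 1.02, edgeR adjusted p = 0.109). Of the collagen VI chains tested, Col6a1, Col6a2, Col6a3 and Col6a6, none was called.

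The collagens of skin-type anchoring and of the cell membrane stayed under 1 CPM outside KO 6 and KO 7. Col7a1, the anchoring fibril collagen, had 2.76 and 2.10 CPM in KO 6 and KO 7 and at most 0.411 CPM elsewhere, and Col17a1, a hemidesmosome collagen, had at most 0.373 CPM, in KO 4. Col13a1 had 2.51 and 3.31 CPM in KO 6 and KO 7 and at most 0.246 CPM elsewhere. These 3 genes were below the filter and carry no test. Col25a1 had 1.86 and 1.08 CPM and Col23a1 2.29 and 1.05 CPM in KO 6 and KO 7, and both were tested and not called (1.57, SE 1.00, edgeR adjusted p = 0.29, and 2.12, SE 1.59, edgeR adjusted p = 0.37).

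Among integrin alpha chains Itga9 and Itga5 were called. Itga5, whose product pairs with beta 1 as the main fibronectin receptor, stood at 3.21, 13.2, 15.8, 16.7 and 23.9 CPM in KO 2, 4, 5, 6 and 7 and at 6.34, 4.64 and 5.65 CPM in the controls. KO 2 was under the controls and the rest above (1.40, SE 0.44, edgeR adjusted p = 0.0495). Itga9, a receptor chain for tenascin and related ligands, stood at 1.97, 3.63, 4.80, 22.3 and 17.4 CPM against 0.587, 2.38 and 0.675 CPM, with KO 2 among the controls (3.02, SE 0.86, edgeR adjusted p = 0.0365). Laminin receptor chains were not called: Itga3, needed for normal branching of the collecting system, stood at 28.7, 63.2, 72.6, 16.9 and 15.1 CPM against 28.5, 26.5 and 16.6 CPM (0.72, SE 0.46, edgeR adjusted p = 0.29). Itga3 was high in KO 4 and KO 5 and at or under the controls in KO 6 and KO 7, and without KO 4 and KO 5 its fold change was -0.24. Itga6 stood at 33.6, 46.2, 54.1, 22.7 and 27.2 CPM against 43.5, 40.9 and 34.1 CPM (-0.11, SE 0.27, edgeR adjusted p = 0.813), with KO 6 and KO 7 the lowest of all 14.

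Itgb4, which pairs with alpha 6 in hemidesmosomes, was the called beta chain. It stood at 1.64, 7.52, 8.21, 3.26 and 2.74 CPM in KO 2, 4, 5, 6 and 7 and at 1.17, 0.780 and 1.60 CPM in the controls, so that KO 2 cleared the highest control by a few hundredths (1.98, SE 0.58, edgeR adjusted p = 0.0398). In the Pkd1-line controls Itgb4 stood at 1.69, 2.06 and 1.49 CPM, so KO 2 was not above all 6 controls. An antisense gene covers part of the Itgb4 exons (7.7% of their bases). Itgb1 stood at 114, 135, 149, 75.6 and 99.1 CPM against 90.0, 89.3 and 95.5 CPM and was not called (0.32, SE 0.20, edgeR adjusted p = 0.269). Itgb6, partner of alpha v, stood at 5.51, 9.33, 12.1, 0.681 and 1.34 CPM against 4.35, 5.50 and 6.02 CPM, high in KO 5 and KO 4 and lowest of the 14 in KO 6 and KO 7 (0.13, SE 0.66, edgeR adjusted p = 0.91).

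Itgb3, the beta chain of the platelet fibrinogen receptor, had the lowest fold change of the set. It stood at 1.57, 0.800, 1.35, 0.287 and 0.764 CPM in KO 2, 4, 5, 6 and 7 and at 3.94, 9.57 and 0.614 CPM in the controls, which overlapped (-2.31, SE 0.75, edgeR adjusted p = 0.0519). Pf4, a platelet gene, was at 35.3, 300.5 and 4.24 CPM in those controls and at most 2.61 CPM in the KO libraries. In Pkd1 KO 3, where Pf4 was 41.8 CPM, Itgb3 was 6.15 CPM, against 1.67 and 1.44 CPM in the other Pkd1 KO libraries. The part of platelet RNA in the Itgb3 values was not tested.

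Summed over chains as deposited TPM, basement membrane and other interstitial genes were higher in KO 4 to KO 7, but in different proportion. The 21 basement membrane genes summed to 52.3, 352, 384, 189 and 226 TPM in KO 2, 4, 5, 6 and 7 and to 62.8 to 99.7 TPM in the 6 controls. The 11 fibrillar collagens summed to 4.08, 13.4, 15.5, 57.4 and 72.3 TPM against 4.10 to 12.03 TPM. For these KO 4 was close to the highest control and to Pkd1 KO 2 (13.3 TPM). The 21 other interstitial genes summed to 12.7, 42.4, 52.7, 157 and 150 TPM against 9.65 to 15.7 TPM. Single genes gave most of these sums: Fn1 33.5 and 37.6 TPM in KO 4 and KO 5, and Col26a1 115 and 107 TPM in KO 6 and KO 7. Basement membrane chains made 46.25 and 49.9% of all member TPM outside the integrin chains in KO 6 and KO 7. That share was 75.6 to 86.3% in the other 12 libraries. Its total also holds the anchoring and transmembrane collagens, and in KO 6 and KO 7 Col26a1 was the largest single gene in it. The share without Col26a1 was not taken. These sums carry no test. They also lack the TMM scaling of the CPM values, whose factors were 1.15 to 1.32 in KO 4 to KO 7 and 0.862 to 0.966 elsewhere. The scale matters for Lamb1 in KO 6. There it was 19.1 TPM against 17.4 to 17.6 TPM in the Cep120-line controls, but 68.2 CPM against 109 to 112 CPM. The sums therefore do not give the size of a rise on the scale of the tests. Nor do they show a rise of fibrillar collagens in KO 4.

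**Figure D3:**
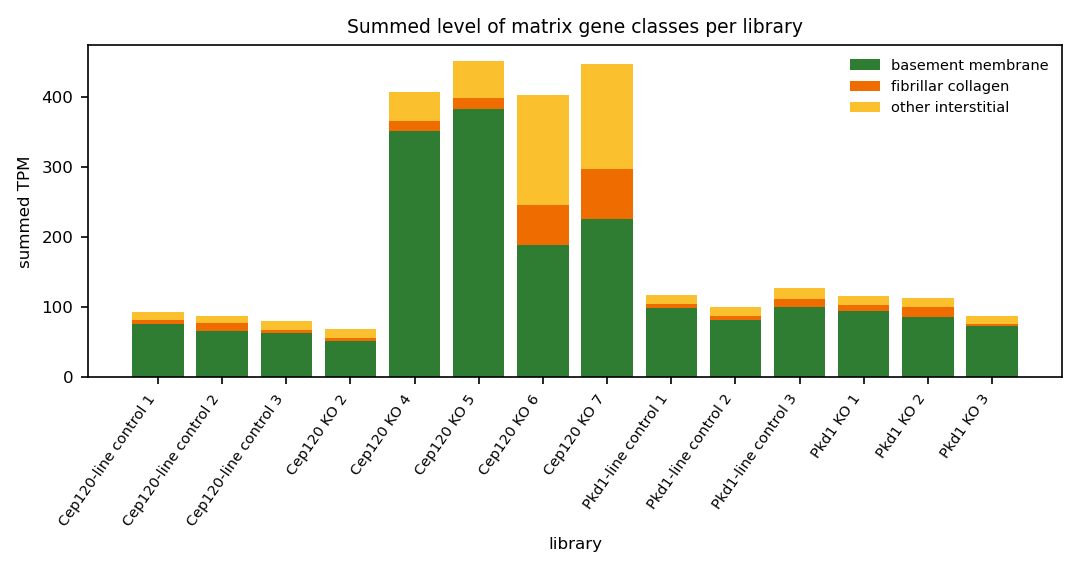
Summed deposited TPM, not scaled by TMM, of basement membrane genes, fibrillar collagens and other interstitial genes in each of the 14 libraries (stacked bars from 0). KO 4 and 5 reach 352 and 384 TPM of basement membrane chains, while KO 6 and 7 hold 157 and 150 TPM of other interstitial genes, against at most 15.7 TPM in the controls. Col26a1 alone gives 115 and 107 TPM of the sums in KO 6 and 7.

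Some markers of other cells, mainly of nephron progenitors, moved with the KO 6 and KO 7 values. Of 10 macrophage or leukocyte and 10 platelet or erythroid markers, 0 lay above or below all other libraries in both KO 6 and KO 7. Of 10 endothelial markers 1 lay above, Plvap. Besides the summed levels given above, Six2, which marks nephron progenitors, was 127 and 86.1 CPM there and at most 1.53 CPM in the other 12 libraries, and Osr1 was 203 and 143 CPM against at most 1.67 CPM. Of the 9 nephron progenitor markers 7 were above all other libraries in both KO 6 and KO 7. Of the 12 stromal markers 4 were, Foxd1, Meis1, Ntn1 and Dlk1, and 8 were not. Foxd1, which defines the cortical stroma, was 4.80 and 3.15 CPM against at most 0.587 CPM, and Meis1 alone gave 63.9 and 55.5 CPM of the stromal sum. The stromal markers Dcn and Lum were lower there (3.12 and 4.52, and 0.0716 and 0.987 CPM) than in Cep120-line control 2 (10.02 and 6.04 CPM). Of the 16 ureteric markers 8 were below all other libraries in both, 1 was above (Pax2) and 7 were neither. Cdh1 of epithelium was 20.2 and 61.9 CPM against 105 CPM or more, Pax2 was 61.9 and 54.6 CPM against 11.1 to 27.1 CPM, and Hoxb7 was 77.4 and 91.3 CPM, within the range of the others. The defining nephron progenitor marker Cited1 was 50.8 and 33.2 CPM in KO 6 and KO 7, within the 20.5 to 55.5 CPM of the other libraries. Of the 9, 12 and 16 nephron progenitor, stromal and ureteric markers none was at 0 in all the Cep120 KO libraries. Their part in the matrix values of KO 6 and KO 7 was not tested. Without those libraries 5 of the 13 genes, Col18a1, Col2a1, Col4a5, Fn1 and Itgb4, were called, with Itga3 and Itgb1 besides (3.44% of all genes called higher). Without KO 4 and KO 5 the test called 7 of the 13, Col18a1, Col26a1, Col2a1, Col4a2, Col5a1, Itga9 and Lamb2 (8.6% of all genes).

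Transcript length and GC content moved with the same libraries. The tested members are long and GC-rich, with a median longest transcript of 6068.5 bases and 53.55% GC against 3027 bases and 49.29% for all tested genes. The longest 10% of genes exceeded the shortest 10% by 1.00, 1.09, 1.35 and 1.27 on the log2 scale in KO 4, 5, 6 and 7, relative to the mean of the 6 controls, and by -0.27 to 0.41 in the other 10 libraries. The same difference between the 10% of genes with the highest and the lowest GC was 0.41, 0.49, 1.08 and 1.22, against -0.16 to 0.13. With a length and GC offset per library, 0 of the 54 members and 0.824% of all genes were called higher. The 13 fold changes all stayed above 0, at 0.37 for Fn1 to 4.33 for Col26a1, with edgeR adjusted p from 0.0514 to 0.386, and the members' median fell from 0.94 to 0.34. A change shared by long or GC-rich genes and a library's own length or GC trend cannot be told apart by these offsets.

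**Figure D4:**
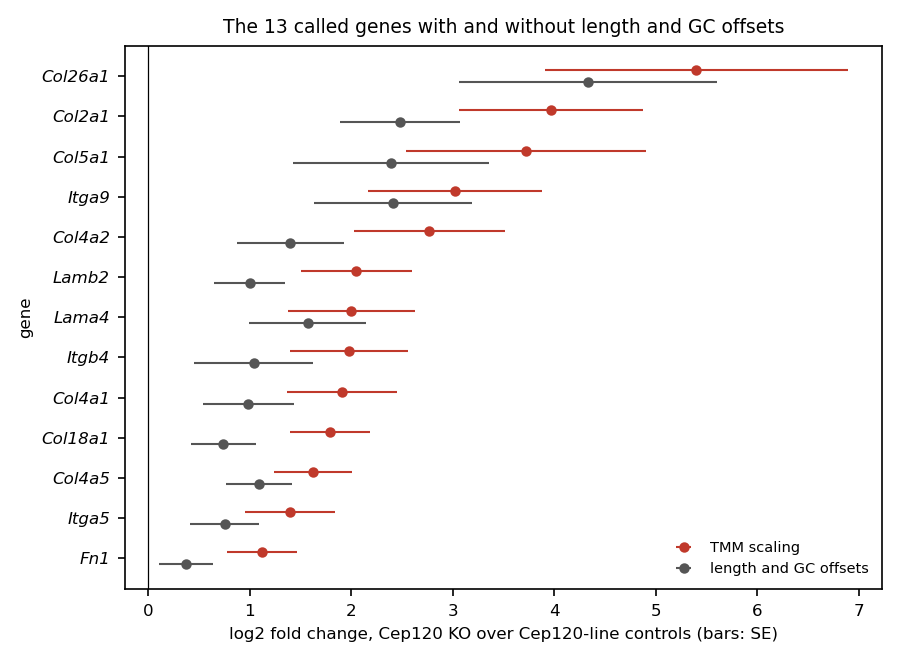
Log2 fold change (x axis, bars 1 SE) of the 13 called genes between the 5 Cep120 KO libraries and their 3 controls, with TMM scaling alone and with length and GC offsets. All 13 are smaller with the offsets and none falls under 0; Col26a1 keeps 4.33 of 5.40 and Fn1 0.37 of 1.12.

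Some genes that act with these chains were called higher in the same comparison and none lower, where 8.4% of all genes were called higher. Of 18 tested other basement membrane genes 6 were called (33.3%), among them Hspg2, which encodes perlecan (2.42, SE 0.52, edgeR adjusted p = 0.029), Sparc, a collagen-binding matrix protein (1.49, SE 0.25), and Bcam, a receptor for laminin alpha 5 (1.67, SE 0.33). Hspg2 stood at 8.13, 60.9, 72.7, 66.7 and 74.0 CPM in KO 2, 4, 5, 6 and 7 and at 9.81, 9.69 and 12.3 CPM in the controls, so it was high in the same 4 libraries as Col18a1. Of 22 collagen-processing genes 2 were called (9.09%, close to the share of all genes), the hydroxylase gene Plod3 (1.05, SE 0.24) and the procollagen proteinase gene Bmp1 (1.51, SE 0.44). Of 20 integrin adhesion genes 6 were called (30%), including talin 1, Tln1 (2.12, SE 0.46), actinin 4, Actn4 (2.16, SE 0.50), and the collagen receptor kinase Ddr1 (1.13, SE 0.27). Of 12 matrix protease genes 4 were called (33.3%), including Adamts1 (2.0, SE 0.31), Mmp14 (1.86, SE 0.42) and Mmp11 (0.90, SE 0.27). The medians of these lists were 0.80, 0.36, 0.54 and 0.91, against 0.12 for all genes. With the offsets Adamts1, Sparc, Bcam and Mmp14 were still called (edgeR adjusted p 0.0328, 0.0328, 0.0448 and 0.0495) and Hspg2 was not (0.78, edgeR adjusted p = 0.205).

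No collagen, laminin or integrin gene was called in Pkd1 KO. In Pkd1 KO against its controls 0 of 54 members were called in either direction, with a background of 0.0% of all genes. An unadjusted p under 0.05 was reached by 1 member and 259 genes, and DESeq2 called 0 members and 3 genes. The members' median was -0.03 and that of all genes -0.01. In 2 members every KO library was above every control and in 4 every one was below, 3.7 and 7.41% of the 54, against 4.88 and 6.19% of all genes.

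The member with the smallest p was Col6a6, a collagen VI chain, with 5, 15 and 22 reads in Pkd1 KO and 1, 0 and 1 in its controls. That is a ratio of 26.6 (95% exact interval 6.92 to 227, counting error only; edgeR adjusted p = 1). In the Cep120-line controls it had 8, 17 and 1 reads, so 1 of those controls was as low as the Pkd1-line ones. Among the other classes the smallest p values belonged to Lamc3, Col11a1, Itga1, Itgb3 and Col23a1. Col11a1 stood at 3.33, 2.70 and 1.87 CPM in Pkd1 KO and 3.802, 5.22 and 4.11 CPM in its controls, under all of them but not called (-0.74, SE 0.50, edgeR adjusted p = 1). Itga1, a collagen and laminin receptor chain, stood at 6.85, 4.56 and 4.77 CPM against 4.79, 4.53 and 1.90 CPM (0.52, SE 0.44, edgeR adjusted p = 1). In these 6 libraries only 52.2 to 69.2% of Itga1 reads lay in protein-coding transcripts. Col4a1 was 22.2, 19.98 and 13.3 CPM against 18.1, 22.1 and 22.2 CPM, and Lama5 was 27.4, 24.2 and 25.2 CPM against 31.6, 21.7 and 21.7 CPM, both with overlapping groups.

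The difference between the Cep120 and Pkd1 effects was tested directly, and 0 of 54 members passed (background 0.0%). Unadjusted p under 0.05 was reached by 14 members and 3436 genes, and DESeq2 called 5 members with the greater effect in the Cep120 line, Col2a1, Lamb2, Col18a1, Col4a5 and Col4a2 (2.68% of all genes), and Itgb3 in the other direction (1.61%). The members' median difference was 0.88 and that of all genes 0.13. For Lamb2 the difference was 2.93 (SE 0.78), for Col2a1 4.48 (SE 1.23), for Itga9 3.10 (SE 1.20) and for Itgb3 -3.85 (SE 1.16), with edgeR adjusted p from 0.176 to 0.193. Rises in the Cep120 line are thus not shown by this test to differ from the Pkd1 line. Without KO 2, 13 members passed in the higher and 2 in the lower direction, with 10.2 and 8.46% of all genes.

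The last comparison set the controls of the lines against each other. Of the 54 members 0 were called between the Cep120-line and Pkd1-line controls, with a background of 0.124% of all genes (0.107% higher and 0.0178% lower in the Cep120 line), although 3 members had an unadjusted p under 0.05 (825 genes), and DESeq2 called 0 members. In 7 members every Cep120-line control lay below every Pkd1-line control and in 1 every one lay above, 12.96 and 1.85%, against 9.99 and 11.5% of all genes. Among the 7 were Col4a5, Lamb2, Col18a1, Lama1, Lamb1 and Col2a1. Col4a5 was 3.88, 3.82 and 2.15 CPM in the Cep120 line and 8.03, 5.45 and 5.10 CPM in the Pkd1 line (-0.91, SE 0.41, edgeR adjusted p = 0.981). Against the 6 controls together, all 13 genes of the Cep120 comparison were still called among 16 members (14.2% of all genes), with edgeR adjusted p from 0.00649 to 0.0323.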

How the data were processed

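The authors deposited an estimated count per gene and per transcript, with no normalization, and TPM per gene, which is scaled by length and library. Per the submitters' processing notes they used DRAGEN and mm9; no version, role or annotation release is stated there. The cDNA kit does not mark strand, per the labels' protocols, so 24 of the 76 genes that share exon bases with another gene are counted with some uncertainty. Gene counts were rounded, as 88.4 to 91.6% of values in a library were whole; 287 repeated lines were dropped. Coordinates, length and GC come from GENCODE M21 (GRCm38), not the submitters' build. The transcript counts served only for the coding shares of Itga6, Lama5 and Itga1.

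The filter was filterByExpr with 10 as its minimum count (16876 genes left), and scaling was by TMM. All 14 libraries entered one edgeR 4.0.16 quasi-likelihood fit (R 4.3.3) (4 group means, 10 residual degrees of freedom). Calls needed a p-value under 0.05 after Benjamini-Hochberg adjustment over all genes. Fold changes are log2 with their standard error. CPM values are scaled by TMM. The fit was also run on simulated counts, and no result here rests on that run. Apart from set changes in Cep120 KO, those counts had a common mean and dispersion per gene. They lacked the differences seen among the Cep120 KO libraries. Alternatives were RLE factors, no filter, compared groups alone, DESeq2 1.42.0, limma 3.58.1 with voom quality weights, length and GC offsets (mgcv 1.9.3), left-out libraries, KO 4 and KO 5 summed, pooled controls and a replicate block.

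The genes, classes, lists and alternatives were chosen with earlier results of these data known. Genes named with values are up to 6 called members of each class, or the member with the smallest p, for each comparison. The members with the highest mean control TPM (6 of the basement membrane, 3 of each other class), the collagen IV pairs, and up to 3 called genes of each pathway list were named too. Nid2, Col9a1, Col15a1, the collagen VI chains and the marker genes fall outside this rule and were chosen after their values were seen. A further tested member enters the counts and sums but is not reported here by name.

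A count of reads with no molecular identifiers counts amplified copies, so intervals cover counting error only.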

Additional observations from a re-analysis of the deposited data

Results flagged for a closer look

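In 42 groups of 5 libraries tested for the named members, the highest or lowest library was set against its nearest neighbour with Dixon's criterion (a gap over 0.71 of the range), which chance alone meets in about 1 of 20 groups. In 3 groups a library stood apart, all in Cep120 KO. Col1a1 was 56.8 CPM in KO 7 and at most 16.5 CPM in the other Cep120 KO libraries. Col17a1 was 0.373 CPM in KO 4, at a level of few reads, and at most 0.0637 CPM in the others. Col4a6 was 0 CPM in KO 2 and 2.40 to 3.12 CPM in the others. Genes named outside the naming rule were not scanned, such as Col15a1 with 3.82 CPM in KO 7 and at most 0.657 CPM elsewhere.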

How the results depend on the processing

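The 13 members called higher in the Cep120 line (8.4% of all genes) became 0 with the compared groups fitted alone (0% of all genes), 0 with length and GC offsets (0.824%), 0 with KO 2 alone (0.0111%), 25 with limma-voom (21.4%), 7 with KO 4 and KO 5 summed (5.54%), 7 without KO 6 and KO 7 (3.44%) and 7 without KO 4 and KO 5 (8.6%). Leaving out 1 library at a time gave 0 to 19 members higher and 0 to 1 lower. The 1 called lower without the filter, by DESeq2 and without KO 2 was Itgb3. Without the filter 14 were higher, with RLE factors 11, with DESeq2 16 and with pooled controls 16. For the difference between the effects, DESeq2 called 5 higher and 1 lower, voom 18 and 1 (13.4 and 12.6% of all genes), and leaving out 1 library at a time gave 0 to 13 and 0 to 2. Pkd1 KO and the controls of both lines gave 0 members in every alternative run.

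Directions turned as follows (log2 fold change). With KO 2 alone, the Cep120-line values were -0.0637 for Col18a1, -3.54 for Col1a1, -4.76 for Col23a1, -1.75 for Col25a1, -1.41 for Col26a1, -0.81 for Col4a1, -1.15 for Col4a2, -6.92 for Col4a6, -0.037 for Fn1, -0.76 for Itga5, -0.78 for Lama1, -0.0868 for Lama4, -0.37 for Lama5, -0.46 for Lamb1, -0.0662 for Lamb2 and -0.57 for Lamc1; that fit rests on 1 library, taken to vary like the other groups. Without KO 4 and KO 5 they were -0.24 for Itga3, -1.11 for Itgb6, -0.18 for Lama1 and -0.42 for Lamb1, and without KO 6 and KO 7 -1.48 for Col1a1 and 0.17 for Itga6. With offsets they were -0.18 for Col1a1, -0.018 for Itgb6, -0.0631 for Lama1 and -0.12 for Lama5, with voom -0.31 for Col1a1 and 0.28 for Itga6, and with KO 4 and KO 5 summed -0.19 for Itgb6. Single libraries left out gave -0.30 for Col1a1 (KO 7), 0.027 for Itga6 (KO 6), -0.11 and -0.34 for Itgb6 (KO 4 and KO 5), -3.46 for Col23a1 in the Pkd1 line (KO 2) and -3.47 for Col23a1 between controls (Cep120-line control 2). The difference for Col25a1 turned to -1.36 with voom, -0.17 with offsets, and -0.20, -0.71 and -0.02 without Cep120-line control 1, Pkd1-line control 1 and Pkd1 KO 2. Over the libraries left out in turn, these values ran up to 3.55 for Col1a1, down to -0.29 for Itga6, up to 0.42 for Itgb6, up to 2.88 and 1.97 for Col23a1 in the Pkd1 line and between controls, and up to 0.69 for Col25a1. The causes were not tested.

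Same-numbered libraries did not deviate together (correlations -0.124 to -0.029 in the Pkd1 line and -0.007 to 0.052 between controls), so their numbers give no pairing. With a replicate block 0 members were called in either comparison. Over all genes it gave 0 in the Pkd1 line, against 2 higher and 1 lower in a separate fit without it, and 72 higher and 27 lower between controls, against 89 and 50. Depth limits genes near or under 1 CPM in the controls, such as Lamc3, Col4a6, Col25a1 and Col23a1, whose fold changes have standard errors above 1.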
